A study of Mus musculus with 60 samples.

Results

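H3K27ac peaks of mouse dorsal root ganglia were compared between laminectomy (Lam) and sham sciatic nerve surgery (Sham), the pair of operations in which no axon was cut. The peaks described are those that overlapped a site of open chromatin, an ATAC-seq peak of any surgery, by at least 1 bp. They numbered 39585 of 67311 peaks after laminectomy (58.8%) and 25361 of 43803 after sham surgery (57.9%), 64946 of the 233427 H3K27ac peaks listed for all 4 surgeries. At the edge of the rule, 959 Lam and 678 Sham members overlapped an ATAC-seq peak by under 50 bp, and 927 Lam and 714 Sham peaks were left out although an ATAC-seq peak lay within 50 bp.

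All mice were C57BL/6 and 6 to 8 weeks old, and L4-L6 ganglia were taken 24 hours after surgery. Laminectomy removes vertebral bone over the spinal cord, and the sham operation was done at the sciatic nerve, so the groups differ in the place of the operation as well as in its kind. The axotomy counterparts were dorsal column axotomy (DCA) in the spinal cord and sciatic nerve axotomy (SNA). Each surgery had 2 ChIP samples and 2 inputs for H3K27ac, each ChIP sample pooling the ganglia of 10 mice, and 3 ATAC-seq samples of 1 mouse each. The submitters merged the replicates into 1 peak list per surgery, so no spread between replicates accompanies any value below and no difference between the surgeries could be tested; intervals are 95% Wilson intervals and cover counting error only.

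H3K27ac is acetylation of lysine 27 of histone H3. It marks the promoters of transcribed genes and active enhancers, and it is laid down by the acetyltransferases CBP and p300. Dorsal root ganglia hold the cell bodies of sensory neurons, each wrapped by satellite glia, together with Schwann cells, endothelial cells, fibroblasts and macrophages. In whole ganglia, fewer cells of a type and less mark per cell cannot be told apart.

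Markers of peripheral glia carried the mark in both lists. Sox10, the transcription factor of peripheral glia, had 6 Lam and 7 Sham peaks at open sites in or within 10 kb of the gene. Mbp, myelin basic protein, had 19 and 13. Of 23 genes of sensory neuron identity, 8 had no peak at an open site in either list, a share near that of all genes (8000 of 21883), and 5 of the 8 (the neurofilament genes Nefl, Nefm and Nefh, the LIM factor Isl1, and Pvalb, a calcium-binding protein of proprioceptors) had no H3K27ac peak at all.

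Some promoters overlapped a peak of the Lam or the Sham list and none of the other. Lam only and Sham only refer here to these lists, whatever the axotomy lists held. A peak of the other list could still lie within 1 kb of the start. The 250 bases before the start are printed below for 7 promoters, from the RefSeq promoter table (GRCm38.p6, the mm10 coordinates), because their peak in one list had no counterpart in the other. Plcb4 and Rnf130 carried the strongest Lam peaks over a promoter window (250 bases before to 50 after the start) free of Sham peaks, and Trhde and Pim2 the strongest Sham peaks over one free of Lam peaks; Trpv1, Prph and Calca were chosen, after their values were seen, as genes of sensory neurons. Capitals mark matches on either strand to the AP-1 motif TGANTCA, the cyclic AMP response element TGACGTCA, the GC box GGGCGG, the well-known CCAAT box, the E-box CACGTG, the ETS motif CCGGAAGT, the TATA box TATAAA, the NRF1 motif or the glucocorticoid response element, and matches that overlap run together.
Plcb4 (Lam only, chr2:135659297-135659546, plus strand): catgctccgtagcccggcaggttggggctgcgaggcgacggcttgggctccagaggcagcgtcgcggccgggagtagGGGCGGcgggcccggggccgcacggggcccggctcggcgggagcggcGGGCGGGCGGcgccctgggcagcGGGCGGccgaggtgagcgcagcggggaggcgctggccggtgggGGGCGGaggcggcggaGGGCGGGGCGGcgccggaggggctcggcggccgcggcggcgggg
Rnf130 (Lam only, chr11:50025081-50025330, plus strand): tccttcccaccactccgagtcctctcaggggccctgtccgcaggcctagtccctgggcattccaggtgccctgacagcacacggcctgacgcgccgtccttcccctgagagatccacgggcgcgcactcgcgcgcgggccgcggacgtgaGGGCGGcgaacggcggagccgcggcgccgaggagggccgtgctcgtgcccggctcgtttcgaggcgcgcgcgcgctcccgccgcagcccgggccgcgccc
Trpv1 (Lam only, chr11:73233899-73234148, plus strand): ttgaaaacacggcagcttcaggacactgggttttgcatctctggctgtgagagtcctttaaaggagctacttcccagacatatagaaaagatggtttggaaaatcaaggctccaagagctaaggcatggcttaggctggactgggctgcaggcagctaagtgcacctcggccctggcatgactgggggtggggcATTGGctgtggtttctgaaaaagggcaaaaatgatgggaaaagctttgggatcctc
Prph (Lam only, chr15:99054924-99055173, plus strand): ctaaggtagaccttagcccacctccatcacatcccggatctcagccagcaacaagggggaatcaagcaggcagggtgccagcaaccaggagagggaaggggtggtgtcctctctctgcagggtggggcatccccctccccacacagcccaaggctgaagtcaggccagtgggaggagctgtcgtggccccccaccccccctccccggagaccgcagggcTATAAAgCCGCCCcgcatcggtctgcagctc
Calca (Lam only, chr7:114636358-114636607, minus strand): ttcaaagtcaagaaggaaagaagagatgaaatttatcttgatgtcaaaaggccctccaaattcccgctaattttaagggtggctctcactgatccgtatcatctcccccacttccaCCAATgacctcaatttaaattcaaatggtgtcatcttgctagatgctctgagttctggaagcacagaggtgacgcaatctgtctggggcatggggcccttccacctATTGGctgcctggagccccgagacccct
Trhde (Sham only, chr10:114802303-114802552, minus strand): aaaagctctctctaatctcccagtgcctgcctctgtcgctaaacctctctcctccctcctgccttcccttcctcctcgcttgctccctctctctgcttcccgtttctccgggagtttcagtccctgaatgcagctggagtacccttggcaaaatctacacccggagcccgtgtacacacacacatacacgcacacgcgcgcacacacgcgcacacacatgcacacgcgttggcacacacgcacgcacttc
Pim2 (Sham only, chrX:7878056-7878305, plus strand): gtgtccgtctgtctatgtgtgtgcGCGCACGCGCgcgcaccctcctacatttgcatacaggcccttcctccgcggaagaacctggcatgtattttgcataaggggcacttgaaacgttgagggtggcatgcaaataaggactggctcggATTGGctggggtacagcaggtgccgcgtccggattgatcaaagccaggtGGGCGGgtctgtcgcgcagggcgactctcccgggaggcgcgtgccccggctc
Plcb4, a phospholipase C of G-protein signalling, had 7 GC boxes in these 250 bases, which were 85.2% G or C, and a Sham peak lay outside its window, 0.494 kb from the Lam peak. The Plcb4 peak also overlapped a DCA peak. Rnf130, a ubiquitin ligase, had 1 GC box and 76.4% G or C. The sensory genes had fewer G and C: Trpv1 50.8% with 1 CCAAT box, Calca 48.0% with 2 CCAAT boxes, and Prph 65.2% with 1 GC box and 1 TATA box. The start of Trpv1 was also marked in DCA and that of Prph in SNA, and the start of Calca in neither. Trhde, the peptidase that degrades thyrotropin-releasing hormone, held none of the 9 motifs. Pim2, a serine/threonine kinase, held 1 GC box, 1 CCAAT box and 1 NRF1 match.

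Across all promoters, windows with a peak in only one list lay closer in base composition to windows with peaks in both than to windows with none. Of 21262 windows, 2375 (2160 genes) overlapped a Lam peak with no Sham counterpart and 352 (317 genes) a Sham peak with no Lam counterpart. The median G and C content of the 250 bases before the start was 62.0% in the Lam-only windows, 58.0% in the Sham-only windows, 60.0% in the 4766 windows with both, and 50.8% in the 12588 with neither. A GC box was present in 65.4% of Lam-only windows, 54.8% of Sham-only windows and 56.7% of windows with both, against 42.6% of all windows. An E-box was present in 8.25%, 10.2% and 8.10%, against 6.63% of all. The glucocorticoid response element was present in 0.379% of Lam-only windows and in 0 of 352 Sham-only windows (a share of up to 1.08% by the interval), against 0.357% of all. The letters describe these windows, and a match is not a bound site.

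The Lam list was the longer one. The log2 ratio of the peak numbers at open sites was 0.64, and 19046 of its 39585 peaks had no Sham peak (48.1%, interval 47.6 to 48.6), whereas 4942 of 25361 Sham peaks had no Lam peak (19.5%, interval 19.0 to 20.0). When the Lam list was cut to as many of its strongest peaks as Sham had, the shares became 35.5% of Lam and 32.7% of Sham peaks. Lists of equal length leave nearly equal unmatched shares by construction, so only their level carries information. The 500th strongest member had a −log10 p of 45.1 in Lam and 57.3 in Sham, and the 1000th had 31.9 and 33.8. These values come from separate caller runs and rank peaks within a list only, so they do not place the surplus among strong or weak peaks. With a peak of either list counted as shared only where each covered 50% of the other, the unmatched shares were 69.5% in Lam and 52.2% in Sham. The number of peaks a caller reports depends on the depth and enrichment of each library. The background pile-up recovered from the lists was 2.91 reads in Sham and 3.08 in Lam, the weakest listed peaks had a −log10 p of 2.15 and 2.04, and the median member had a pile-up of 19 reads in both. How much of the difference in peak number comes from the libraries was not tested.

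Unmatched peaks were weak peaks. Among the 7917 strongest Lam peaks at open sites, 14.1% had no Sham peak, and the share was 34.7%, 52.1%, 65.6% and 74.0% in the following 4 groups of equal size. Sham peaks gave 7.99%, 10.6%, 17.2%, 27.4% and 34.3% in the same order. Of the 500 strongest Lam peaks only 3 were unmatched (0.60%), and of the 500 strongest Sham peaks none were (a share of up to 0.762% by the interval). The authors' fold enrichment had a median of 3.92 at unmatched and 4.90 at shared Lam peaks, and of 3.84 and 4.27 at Sham peaks. Unmatched peaks were also narrower, with median widths of 537 against 839 bp in Lam and 460 against 673 bp in Sham.

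**Figure D1:**
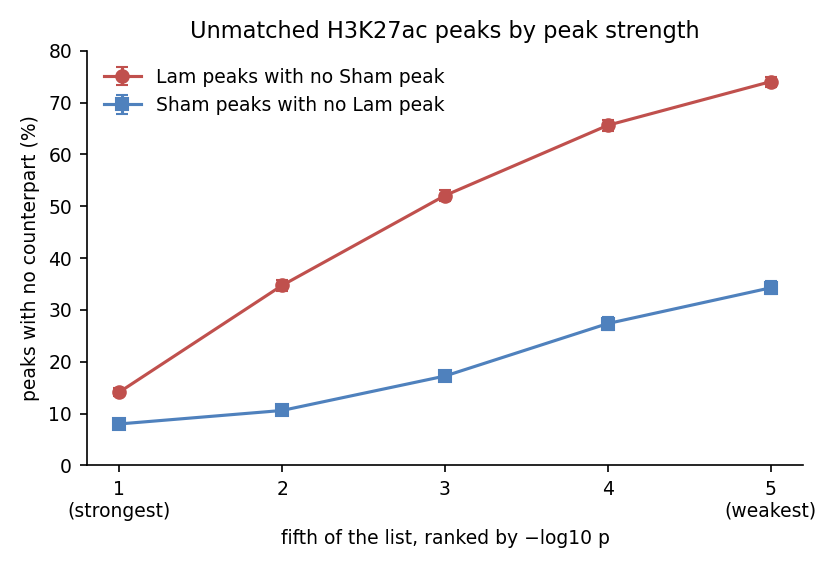
Share of H3K27ac peaks at open sites with no peak of the other list (vertical axis, percent) in 5 groups of equal size ranked by −log10 p (horizontal axis); bars are 95% Wilson intervals. The share rose from 14.1% to 74.0% in Lam and from 7.99% to 34.3% in Sham from the strongest to the weakest group.

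Many unmatched peaks lay beside a peak of the other list. Of the Lam-only peaks, 29.8% lay within 1 kb of a Sham peak and 70.4% within 10 kb, with a median gap of 3.47 kb. Of the Sham-only peaks, 39.8% lay within 1 kb of a Lam peak and 73.3% within 10 kb, with a median gap of 2.16 kb. When peaks within 1 kb were counted as shared, 33.8% of Lam and 11.7% of Sham peaks stayed unmatched.

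**Figure D2:**
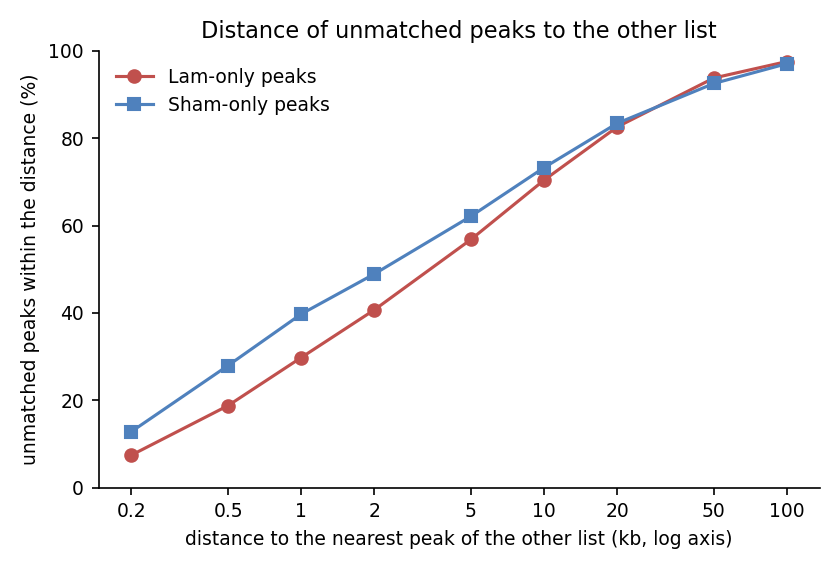
Cumulative share of unmatched peaks (vertical axis, percent) whose nearest peak of the other list lay within the distance on the horizontal axis (kb, log axis). The Sham-only curve lies above the Lam-only curve up to 20 kb, and 93.8% of Lam-only and 92.5% of Sham-only peaks had a neighbour within 50 kb.

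Taken over all strengths, gene starts were less frequent among unmatched than among shared peaks. Within 1 kb of a gene start lay 29.7% of Lam-only peaks (interval 29.0 to 30.3) and 19.9% of Sham-only peaks (18.8 to 21.0), against 43.8% of shared Lam and 43.9% of shared Sham peaks. Among peaks at sites open in both Lam and Sham, the shares at gene starts were higher, 57.1% of Lam-only and 43.1% of Sham-only peaks. The share also differed with peak strength. At a gene start lay 57.6% of the strongest and 19.1% of the weakest group of Lam peaks, and 40.2% and 27.7% in Sham. Of unmatched peaks whose own −log10 q reached 5, 43.9% in Lam and 23.3% in Sham were at a gene start. Unmatched and shared peaks of equal strength were not compared. By gene, 8013 of 21883 protein-coding genes had a peak at the start in both lists, 2885 in Lam alone (13.2%) and 425 in Sham alone (1.94%). Of the 2885 Lam-only starts, 2337 also had an SNA peak and 1612 a DCA peak. Of the 425 Sham-only starts, 290 (68.2%) had an SNA peak and 181 (42.6%) a DCA peak. Both shares were higher at the 8013 starts marked in both lists, where 96.3% had an SNA peak and 87.5% a DCA peak.

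The strongest Lam-only peaks lay mostly at gene starts and within 1 kb of a Sham peak. The first was in Nsd1, a histone H3 lysine 36 methyltransferase, at chr13:55211786-55212230 within the gene body, with a fold enrichment of 15.9 and a −log10 p of 60.5, and a Sham peak lay 0.421 kb away. The next was at the start of Tpd52, a vesicle-trafficking protein (chr3:9003566-9004441, fold 15.4), 0.174 kb from a Sham peak. A peak in Baz1a, a subunit of a nucleosome remodelling complex (chr12:54985581-54985947), had a fold of 13.0, and the peak at the start of Plcb4 (chr2:135659521-135659816) one of 12.5. They were followed by peaks at or near Luzp1, Dyrk2, Nol4l, Rnf130, Kpnb1 (importin beta), Arhgap35, Nab1 (a corepressor of EGR proteins) and Kmt2c (an enhancer methyltransferase), with folds of 10.3 to 11.5. Of these 12 peaks 9 were at a gene start, 12 overlapped an ATAC-seq peak of both Lam and Sham, 8 an H3K9ac peak of Lam and 4 one of Sham, 9 an SNA peak and 8 a DCA peak. Among the 12, 9 lay within 1 kb of a Sham peak, and the one farthest from any, at the start of Rnf130 (chr11:50024958-50025265, fold 11.4), was 45.5 kb away and in neither axotomy list.

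The strongest Sham-only peaks lay mostly away from gene starts and from Lam peaks. Of 12 peaks, 1 was at a gene start and 6 lay within a gene body, none was within 1 kb of a Lam peak, 10 overlapped a DCA peak and 0 an SNA peak. None overlapped an H3K9ac peak of Lam or Sham, and 5 and 3 overlapped an ATAC-seq peak of Sham and Lam, the others one of an axotomy list. The first lay between genes at chr15:36946194-36946630 (fold 11.2), 2.10 kb from a Lam peak and at a DCA peak of fold 9.22. Others were in Dync2li1, a cilium motor subunit (chr17:84636869-84637390, fold 11.0), in Ttl, the tubulin tyrosine ligase (chr2:129089672-129090111, fold 11.0), in Atp11a, a phospholipid flippase (chr8:12807595-12808068, fold 11.0), and in Ptprt, a receptor phosphatase (chr2:162575521-162576019, fold 10.5). The only one at a gene start was Trhde (chr10:114802098-114802578, fold 10.7), whose promoter is printed above, and it had a peak in neither axotomy list. The pattern held for the strong Sham-only peaks as a group: of the 405 unmatched peaks among the 5072 strongest Sham peaks, 57.8% had a DCA peak and 9.38% an SNA peak, whereas of the 1118 unmatched peaks among the 7917 strongest Lam peaks, 68.5% had a DCA peak and 88.4% an SNA peak. Peaks away from open sites, which are not counted here, were stronger than members in the Sham list (median fold 4.60 against 4.12) and weaker in the Lam list (3.92 against 4.28).

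At gene starts, the strongest Sham-only peaks after Trhde belonged to L3mbtl3, a reader of methylated lysine (chr10:26374741-26375068, fold 7.93), and to Ovgp1, an oviduct glycoprotein (chr3:105973894-105974279, fold 7.93). A peak at the shared start region of Cd37, a tetraspanin of leukocytes, and Slc6a16 had the same fold of 7.93. Sp6 (fold 7.56), Egr1, an immediate early transcription factor (fold 6.52), and Pim2 (chrX:7877906-7878235, fold 7.41) were also among the 8. The Egr1 peak lay 0.013 kb from a Lam peak, and the start of Egr1 was marked in both lists. Of the 8, 4 overlapped an ATAC-seq peak of Lam and 4 one of Sham, 3 a DCA peak and 0 an SNA peak.

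The strongest peaks of each list were shared. The strongest Lam peak, at the start of Zc3h4, a zinc finger gene (chr7:16400235-16401348), had a fold of 31.4 and a −log10 p of 199, and the Sham peak there a −log10 p of 121. At the start of Spred1, an inhibitor of RAS signalling, −log10 p was 176 in Lam and 235 in Sham. At the start of Jun, the AP-1 subunit (chr4:95052313-95053959), it was 264 in Sham and 172 in Lam. The SNA and DCA lists had a peak at each of the 5 strongest shared peaks of either list. The values are those of each list's own caller run and give no change between the surgeries.

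A Lam-only peak was an SNA peak more often than a DCA peak, while for Sham-only peaks the order depended on their strength. Of Lam-only peaks, 60.9% (interval 60.2 to 61.6) overlapped an SNA peak and 32.5% (31.8 to 33.2) a DCA peak. This order was not particular to Lam-only peaks, and both shares were higher at shared Lam peaks, 83.9% in SNA and 73.9% in DCA. Over all Lam peaks at open sites they were 72.8% and 54.0%. Of Sham-only peaks, 41.2% (39.8 to 42.6) overlapped an SNA peak and 26.9% (25.7 to 28.2) a DCA peak, and in the strongest group of Sham peaks, described above, the order was the reverse. Shared Sham peaks had 83.3% in SNA and 73.6% in DCA, and all Sham peaks at open sites 75.1% and 64.5%. Among Sham-only peaks whose own −log10 q reached 5, the shares were level, 39.9% in SNA and 39.5% in DCA. The SNA list, at 43100 peaks at open sites, was long like the Lam list, and the DCA list, at 27130, short like the Sham list. Merging the Lam and Sham members into regions gave 6541 with a peak in Lam and SNA alone (15.1%), 1135 in Lam and DCA alone (2.62%), 1281 in Sham and SNA alone (2.95%) and 577 in Sham and DCA alone (1.33%). A peak in all 4 lists was present at 12708 regions (29.3%), in Lam alone at 6313 (14.6%) and in Sham alone at 2330 (5.37%). With only Lam and Sham peaks of a −log10 q of at least 5, the share of Lam-only peaks was 55.4% in DCA and 82.8% in SNA, and that of Sham-only peaks 49.0% and 58.5%. The DCA and SNA lists were left whole there, so the thresholds were unlike. Lam-only peaks of that −log10 q set against the whole Sham list had 46.1% in DCA and 77.1% in SNA. Under the 50% reciprocal overlap the Lam-only shares fell to 21.2% and 37.7%.

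**Figure D3:**
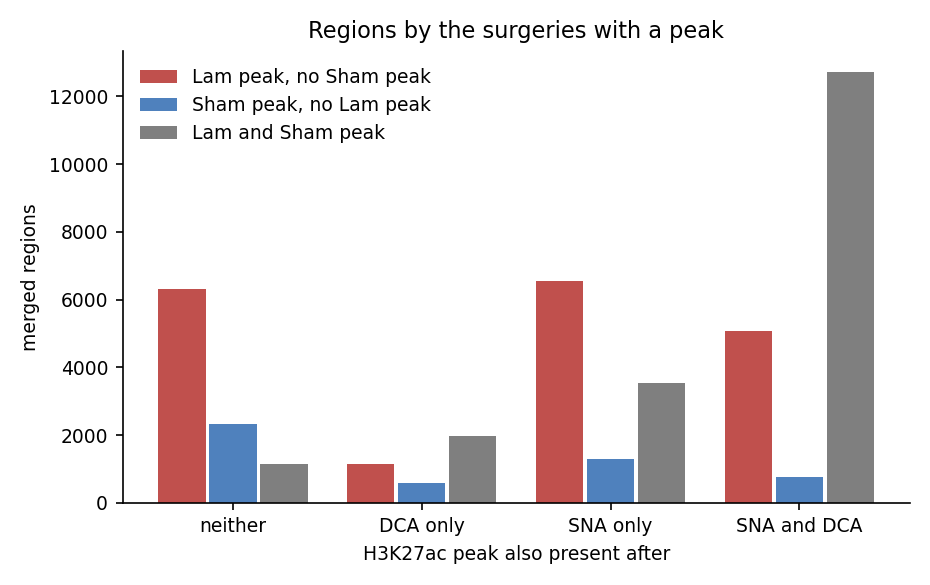
Number of merged regions (vertical axis) with a peak in Lam alone, Sham alone or both of these lists (bar colours), split by the axotomy lists that also held a peak (horizontal axis). Regions present after all 4 surgeries were the largest class at 12708, and Lam-only regions were shared with SNA alone (6541) more often than with DCA alone (1135). The same order held for Sham-only regions (1281 and 577) and for regions of both lists (3525 and 1975).

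The strongest peaks with the pattern of a spinal operation, present in Lam and DCA and absent from Sham and SNA, were at the start of Plcb4 (fold 12.5 in Lam and 9.97 in DCA), in Zfp771, a zinc finger gene (chr7:127253638-127254232, fold 10.8), and at the starts of Hunk, a kinase (chr16:90385434-90386032, fold 9.07), and Sec14l4, a lipid-binding protein (chr11:4031861-4032278, fold 8.74). All 6 peaks of this set overlapped an ATAC-seq peak in Lam and in Sham. The strongest peaks of the sciatic operations, in Sham and SNA and absent from Lam and DCA, included the start of Rnf144a, a ubiquitin ligase (chr12:26413952-26414369, fold 6.43), the start of Pdcd6ip, an ESCRT adaptor (chr9:113708288-113708587, fold 6.39), and the start of Usp11, a deubiquitinase (chrX:20703975-20704421, fold 6.14). Of the 6, 5 lay within 1 kb of a Lam peak.

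H3K9ac and open chromatin at the unmatched peaks were not limited to the surgery with the H3K27ac peak. H3K9ac, a second acetyl mark of active promoters, was present at 44.7% of Lam-only peaks in the Lam list and at 48.2% in the Sham list, where H3K27ac had no peak. At Sham-only peaks it was present at 28.2% in the Lam list and 32.8% in the Sham list. Lam-only peaks overlapped an ATAC-seq peak of Lam in 63.0% and of Sham in 60.7% of cases, and Sham-only peaks in 56.7% and 52.8%. The order of the H3K9ac lists turned at the gene starts of Lam-only peaks, where H3K9ac was present at 69.8% in Lam (interval 68.6 to 71.0) and 64.9% in Sham (63.6 to 66.1). The turn was not particular to Lam-only peaks, since H3K9ac at the gene starts of shared Lam peaks was 85.7% in Lam and 82.9% in Sham. At the gene starts of Sham-only peaks H3K9ac was present at 52.8% in Lam and 53.0% in Sham, whose intervals overlap. An ATAC-seq peak of Lam without one of Sham was present at 18.5% of Lam-only and 22.5% of Sham-only peaks. At shared peaks, H3K9ac was present at 71.6% in Lam and 72.3% in Sham. H3K27me3, a repressive mark, overlapped 8.43% of Lam-only and 10.2% of Sham-only peaks in the Lam list, and 6.69% and 8.98% in the Sham list. At the gene starts of Lam-only peaks its order turned too, with 6.10% in the Lam list and 8.81% in the Sham list. This turn was also not particular to Lam-only peaks. H3K27me3 overlapped 6.61% of all shared Lam peaks in the Lam list and 5.64% in the Sham list, and 4.88% and 5.94% at their gene starts.

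**Figure D4:**
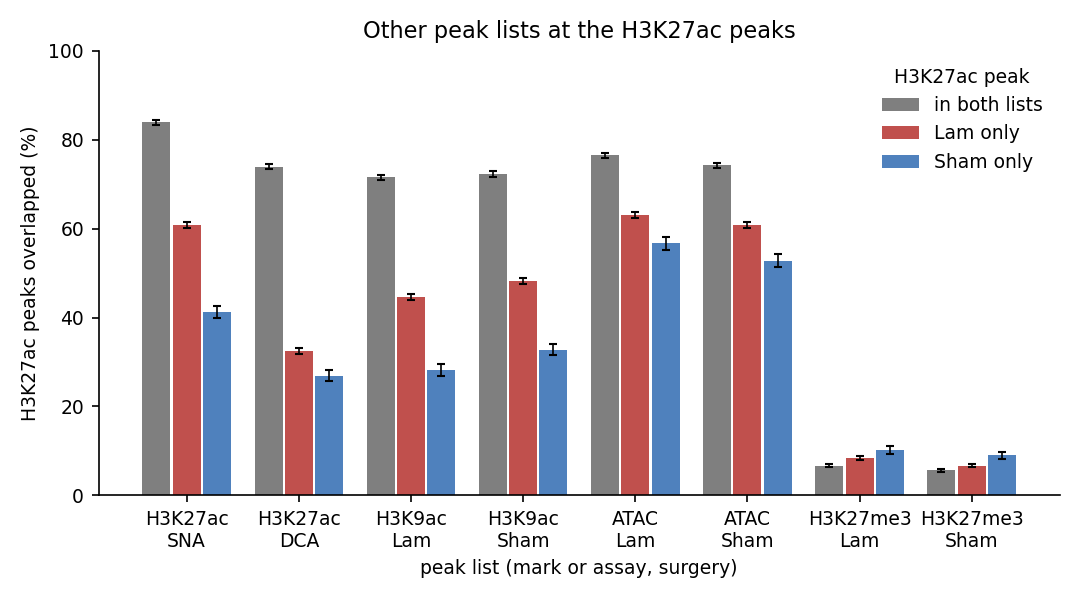
Share of shared, Lam-only and Sham-only H3K27ac peaks (bars, with 95% Wilson intervals) that overlapped a peak of each other list (horizontal axis). Shared peaks had the highest share in every acetylation and ATAC-seq list; H3K9ac at Lam-only peaks was 48.2% in the Sham list and 44.7% in the Lam list.

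By gene, the longer Lam list touched more loci. Of 21883 protein-coding genes, 11325 had peaks of both lists in or within 10 kb of the gene, 2096 of Lam alone (9.58%), 462 of Sham alone (2.11%) and 8000 of neither. A larger number of Lam peaks was found at 8461 genes (38.7%) and a larger number of Sham peaks at 1744 (7.97%). With the lists at equal number, 1459 genes had Lam peaks alone and 1061 Sham peaks alone, and 21.7% of genes had more Lam and 18.7% more Sham peaks.

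Among genes with Lam peaks alone, Sec31a, a coat protein of transport vesicles leaving the endoplasmic reticulum (chr5:100361649-100416273), had the most, with 8 against 0 at open sites, and folds between 3.19 and 6.15. Of these 8, 7 had no Sham peak at all and the other overlapped one away from open sites. Cobll1, an actin-binding protein, and Tg, thyroglobulin, each had 7, and AI467606, Slc1a5, a glutamine transporter, and Fam20c, a secretory-pathway kinase, each had 6. Slc1a5 carried its peaks at and beside the start, the strongest at chr7:16779128-16782061 with a fold of 5.90. Genes with Sham peaks alone had fewer: Cideb, a lipid droplet protein, Zbtb39, Amz1, Ryr1, the calcium release channel of skeletal muscle, and Nell2, a secreted protein of neurons, had 3 each, and Alyref2 had 2. The strongest of them, in Nell2 (chr15:95458203-95458550), had a fold of 8.18.

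Genes of sensory neurons and their ion channels had more Lam peaks, by ratios near that of all genes. The 23 sensory identity genes had 37 Lam and 23 Sham peaks, and 23 Lam peaks at equal number. The 24 excitability channels had 58 and 33, and 36 at equal number. The Lam to Sham ratio was 1.61 and 1.76 in these lists, against 1.53 over all genes, and 1.00 and 1.09 at equal number, against 1.02. Piezo2, the mechanically gated channel of touch, had 13 Lam and 4 Sham peaks, with folds of 2.22 to 5.67 in Lam and 3.48 to 3.84 in Sham. Scn8a, the sodium channel Nav1.6, had 8 and 2. Trpv1, the heat and capsaicin channel, had 5 and 2, with its start marked in Lam alone (chr11:73233688-73234730, fold 5.07). At equal number these became 6, 2 and 2 Lam peaks. Ntrk2, the receptor of brain-derived neurotrophic factor, had 11 and 7. Prph, the peripheral neurofilament peripherin, had 1 peak at its start in Lam (chr15:99055041-99055531, fold 4.41) and none in Sham. Of the 20 neuropeptides and pain receptors 18 had no peak in either list, against 8000 of all 21883 genes, and Calca, which encodes CGRP, had 1 Lam peak at its start (chr7:114635785-114636530, fold 3.68). Pou4f1, the sensory neuron factor Brn3a, went the other way, with 1 Sham peak at its start (chr14:104466910-104467383, fold 4.25) and none in Lam.

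Most regeneration-associated and immediate early genes had peaks in both lists. Of the 30 regeneration-associated genes 22 had peaks in both, 1 in Sham alone and 7 in neither, among them Gap43, the growth-cone protein, and Sprr1a, against 11325 with both and 8000 with neither of 21883 genes. The 30 regeneration-associated genes had 82 Lam and 64 Sham peaks (54 Lam peaks at equal number), and the starts of 19 were marked in both, against 8013 of all 21883 starts. Socs3, a feedback inhibitor of cytokine signalling, had 12 Lam and 8 Sham peaks. Plaur, the urokinase receptor, had 5 and 1. Tubb2b, a neuronal tubulin, had 1 and 3, and Basp1, a growth-cone protein, 0 and 1. Atf3, a stress factor induced by nerve injury, had 2 and 3 with its start marked in both. The 20 immediate early genes had 92 and 75 (71 at equal number), with the start of 18 marked in both and no peak in either list at the other pair, Egr4 and Npas4. Jund had 8 and 3, Fosb 7 and 3, Fosl1 4 and 6, and Fosl2 3 and 5. All 4 encode AP-1 subunits, and they did not share a direction.

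Myelin genes had the most peaks of the 18 lists as deposited, and the glucocorticoid list the most Lam peaks at equal number. The 20 Schwann cell and myelin genes had 120 Lam and 80 Sham peaks, and exactly 80 Lam peaks at equal number. Mbp had 10 Lam peaks at equal number against its 13 Sham peaks, and Fa2h, which makes myelin lipids, had 14 and 8. Ugt8a, the enzyme of galactocerebroside synthesis, had 3 Lam and 0 Sham peaks, with folds of 2.73 to 4.16. The 20 satellite glia genes had 66 and 41 (41 at equal number). Kcnj10, the potassium channel Kir4.1, had 8 and 4, with the start marked in Lam alone. Slc1a3, the glutamate transporter GLAST, had 5 and 1.

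Glucocorticoid and clock genes kept a surplus of Lam peaks at equal list length. The 20 glucocorticoid-response genes had 111 Lam and 64 Sham peaks, and 82 Lam peaks at equal number, 1.28 times the Sham number, against 1.02 times over all genes. At equal number 11 of the 20 had more Lam and 5 more Sham peaks, against 21.7% and 18.7% of all genes. These backgrounds are unlike: all 20 genes had peaks in both lists, whereas 8000 of all 21883 genes had none in either and cannot differ. Zbtb16, a factor induced by glucocorticoids, had 16 Lam and 6 Sham peaks (8 at equal number), and a Lam-only peak at its start (chr9:48834394-48836322) had a fold of 10.0, with a Sham peak 0.226 kb away. Klf9 had 12 and 6 (7 at equal number). Errfi1, an inhibitor of the EGF receptor, had 5 and 1 (4 at equal number), with its start marked in Lam alone. Nr3c1, the glucocorticoid receptor, had 5 and 1 (4 at equal number). Ddit4 had 4 and 5, and Angptl4 2 and 3. Fkbp5 and Tsc22d3, both direct targets of the receptor, had the same number in each list, 3 and 1.

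The 20 clock genes had 93 and 64, and 77 at equal number, 1.20 times the Sham number. Arntl, the activator BMAL1, had 10 and 3 (8 at equal number), and Nr1d1, the repressor REV-ERB alpha, 10 and 4 (6 at equal number). Per2 had 6 and 2 (5 at equal number). Ciart, a clock repressor, had 2 and 4, with its start marked in Sham alone. The genes with more Lam peaks held activators and repressors of the clock. The time of day of tissue collection is not given in the labels. The list was chosen with earlier results known and a ratio over 20 genes has no replicate error, so nothing particular to the lists is read from it.

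The 20 genes of hypoxia and heat shock had 58 and 38 (43 at equal number). Hspa1a, an inducible heat shock protein, had 8 and 1, and Hspa1b 8 and 2. These genes are near-identical neighbours whose 10 kb windows share peaks and between which reads can be split, so their values are uncertain and not independent. Ldha, lactate dehydrogenase, had 2 and 4, and Hk2, hexokinase, 0 and 1.

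The gene lists of immune cells and of tissues near the operations each had Lam and Sham peaks, but many of their genes had neither. Those with neither were 9 of the 12 neutrophil genes and 7 of the 16 bone and cartilage genes. They were also 12 of the 20 fibroblast and meningeal genes and 12 of the 18 skeletal muscle genes, against 8000 of all 21883 genes. The 24 macrophage and inflammatory genes had 22 Lam and 15 Sham peaks (15 at equal number), with 14 of the 24 at 0 in both. Spi1, the factor PU.1 of myeloid cells, had 5 and 2, and the chemokine Cxcl10 1 and 3. The 12 neutrophil genes had 3 and 1. The 16 bone and cartilage genes had 29 and 13 (15 at equal number), with Runx2, the osteoblast factor, at 7 and 3, and 9 of the 16 with more Lam and 0 with more Sham peaks, against 38.7% and 7.97% of all genes. At equal number these were 4 and 1, against 21.7% and 18.7% of all genes. Bglap, osteocalcin, had 1 and 0. The 20 fibroblast and meningeal genes had 15 and 7 (9 at equal number), with Col1a1, type I collagen, at 8 and 2 (4 at equal number). The 18 skeletal muscle genes had 13 and 12. The 16 spinal cord glia genes had 34 and 21 (24 at equal number), with 8 of the 16 at 0 in both, among them Olig1 and Olig2, the factors of oligodendrocytes, and Aqp4, the astrocyte water channel. Tfap2a had 10 and 6, Cspg4, the proteoglycan NG2, 9 and 5 with its start marked in Lam alone, and Mobp, a myelin protein, 1 and 2. Whether bone, connective tissue or blood cells in the dissected tissue moved with the lists was not tested.

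**Figure D5:**
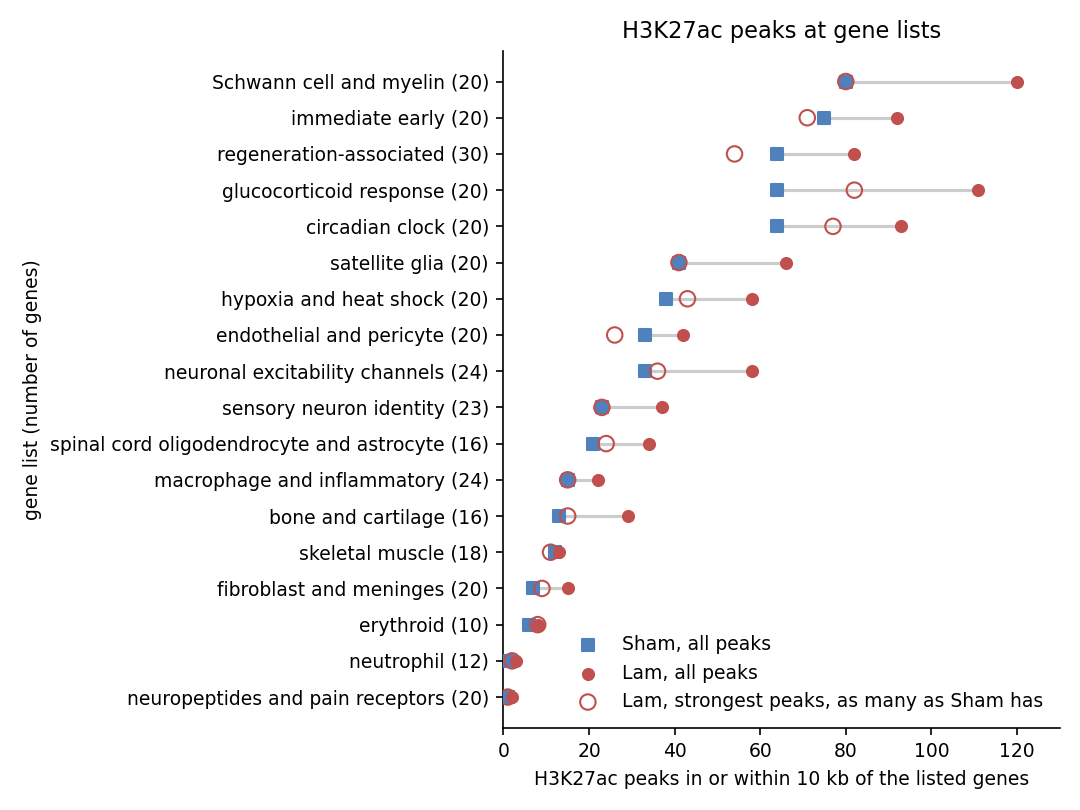
Number of H3K27ac peaks at open sites in or within 10 kb of the genes of each list (horizontal axis) for Sham (squares), Lam (filled circles) and Lam limited to its strongest peaks, as many as Sham has (open circles). All 18 lists had more Lam than Sham peaks, and of the 11 with at least 20 Sham peaks, 5 kept a surplus at equal number, 3 were level and 3 fell below.

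Along the chromosomes the surplus was broad. The ratio of Lam to Sham peaks lay between 1.47 and 1.65 on every autosome, and on the X chromosome it was 220 to 103. The X held 0.556% of Lam and 0.406% of Sham peaks at open sites (intervals 0.487 to 0.634 and 0.335 to 0.492, which overlap slightly), 0.798% of SNA and 0.579% of DCA peaks. In H3K9ac the X held 0.939% of Lam and 0.548% of Sham peaks, and in ATAC-seq 0.274% and 0.302%. Of 10062 bins of 100 kb with a member, 6573 held more Lam peaks, 1354 more Sham peaks and 2135 the same number. The largest Lam surplus was at chr11:5100001-5200000, around Kremen1, an inhibitor of Wnt signalling, with 17 Lam and 2 Sham peaks, followed by Ank, a pyrophosphate transporter gene, with 23 and 8 (chr15:27500001-27600000), and Cux1 with 20 and 6. Stard13 and Actn4 bins each had 21 and 7. The largest Sham surplus was 13 against 8 at chr2:28500001-28600000, around Ralgds, where every peak of either list overlapped one of the other. Bins at Plekha6 (5 Sham and 1 Lam) and Hivep1 (4 and 0) followed.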

How the data were processed

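H3K27ac ChIP-seq peak lists of mouse dorsal root ganglia were compared, with ATAC-seq, H3K9ac and H3K27me3 lists beside them. Reads were 50 bp long, per the labels. The deposited lists hold, for each peak, a fold enrichment over background, a −log10 p and a −log10 q, all computed by the authors' peak caller on the pooled replicates of a surgery, per the series' design text. The build is mm10, per the submitters' processing notes. The aligner, the caller and its settings are not given in the sources used here. These values describe and rank peaks within a list only.

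A peak was shared if it overlapped any peak of the other H3K27ac list by at least 1 bp, and Lam-only or Sham-only otherwise. A gene start is within 1 kb, a gene's peaks are those at open sites in its body or within 10 kb. Coordinates of genes and promoters are from RefSeq (GRCm38.p6). A Lam peak overlapped 38.8% of promoter windows, and 5.32% of the same windows moved by 10 kb. Identical lines of the ATAC-seq lists were collapsed. Of 24 sensory identity symbols 23 matched, and every symbol of the other 17 lists matched. Pile-ups were recovered from fold and p within 0.003 for 100% of peaks in both lists. Scripts used Python 3.11.15, numpy 2.4.6, pandas 2.3.3, scipy 1.17.1 and matplotlib 3.10.9, and their functions were tested on simulated data.

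Named by rule were the 12 strongest peaks found in only one list (8 at gene starts), the 5 strongest shared peaks, the 6 strongest shared with one axotomy list by place of operation, the 6 genes with most peaks in one list and none in the other, the 5 bins of 100 kb with the largest difference, and the 2 members of each gene list with the largest difference in each direction. Other members of the lists were named after their values were seen. Some items that the rule names are not reported here. The members and lists were chosen with earlier results of these data known. Alternatives were a stricter q, lists of equal number, scaling to the background, sites open in both surgeries, other overlap rules and other gene windows.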

Additional observations from a re-analysis of the deposited data

How the results depend on the processing

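Each surgery has 1 list made from pooled replicates, so no replicate could be left out. No paired analysis was possible because the lists carry no replicate values. Of 80 values under alternatives, 25 moved by less than their counting interval (or, for gene counts, by less than 1.5 times) and 55 by more; the cause was not tested. Among the 25, 6 could not move, since the overlap rules alter neither the peak numbers nor the gene counts. Lam scaled to the Sham background moved none of the values. The scaling went only from 3.08 to 2.91 reads and left 39566 of 39585 Lam members, so it could hardly move a value. The share of unmatched peaks was higher in Lam than in Sham in each alternative. A longer list by itself favours this order, and the Lam list stayed the longer except at equal number. There the shares are nearly equal by construction, so the order is no measure of stability. Values below are given as the log2 ratio of peak numbers, the unmatched share of Lam and of Sham peaks, the share at a gene start (Lam-only, Sham-only), the share of Lam-only peaks in DCA and in SNA, and the same for Sham-only peaks.

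With both lists limited to peaks whose −log10 q reached 5, these were 0.75, 53.8% and 22.1%, 44.1% and 31.4%, 55.4% and 82.8%, and 49.0% and 58.5%, and 3164 genes had Lam peaks only. The DCA and SNA lists were left whole under this limit. With lists of equal number they were 0.00091, 35.5% and 32.7%, 42.0% and 24.1%, 43.8% and 74.5%, and 35.2% and 54.8%, and 1459 genes had Lam peaks only and 1061 Sham peaks only. At sites open in both surgeries they were 0.60, 39.5% and 11.97%, 57.1% and 43.1%, 42.9% and 71.1%, and 33.8% and 56.6%. With a reciprocal overlap of 50% the shares were 69.5% and 52.2%, 31.7% and 30.8%, 21.2% and 37.7%, and 28.3% and 30.9%. With peaks within 1 kb counted as shared they were 33.8% and 11.7%, 26.0% and 14.01%, 41.4% and 69.8%, and 30.4% and 40.0%. With gene starts taken within 5 kb, 38.9% of Lam-only and 29.9% of Sham-only peaks were at one. An alternative chosen after seeing the data limited the queried peak alone to a −log10 q of 5 or more and gave 33.3% and 11.6%, 43.9% and 23.3%, 46.1% and 77.1%, and 39.5% and 39.9%, with 1342 genes with Lam peaks only and 238 with Sham peaks only. The weakest listed peaks had a pile-up of 9 reads, so a site just below that in one list counts as unmatched.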
